A study of Mus musculus with 4 samples.

Results

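The expression of potassium channel genes was compared in embryonic mouse retina (E13.5) of 2 genotypes, wildtype and the conditional knockout of Nrf1 (Nrf1 f/f;Six3-Cre). The members were all rows of the count table whose symbol starts with Kcn and names a channel or channel subunit of the subfamilies a to h, ip, j, k, m, n, q and s to v, without antisense transcripts. This gave 93 of the 24062 genes in the table, and 4 further Kcn symbols (Kcnd3os, Kcnmb4os1, Kcnq1ot1 and Kcnrg) stayed outside. RNA-seq was done on 4 libraries, 2 of wildtype and 2 of Nrf1-CKO retinas, from mice of a mixed C57BL/6 and 129 strain. In the Nrf1-CKO embryos both Nrf1 alleles were floxed, and the Six3-Cre transgene, which acts in the progenitor cells of the central retina, was used to remove the gene there. Each library was 1 pool of 18 retinas from littermates, and p-values therefore measure the spread between pools.

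Potassium channels let potassium ions leave the cell and thereby set the resting potential and end the action potential. Voltage-gated alpha subunits form channels that open on depolarization, and modifier and auxiliary subunits change their opening, assembly or transport. Inward rectifiers and tandem-pore channels carry the resting conductance, and calcium-activated channels couple the membrane potential to calcium entry. In the retina, ganglion cells are the first neurons to be born, and voltage-gated potassium channels appear in them as they become excitable, while several inward rectifiers are best known from glia, pigment epithelium and the cells of vessel walls.

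Reads counted on genes numbered between 74577660 and 85933945 per library. For Nrf1 itself 9052 and 7789 reads were counted in wildtype, and 8594 and 8284 in Nrf1-CKO retinas, with a log2 fold change of -0.03 ± 0.07 (SE), so a count over the whole gene did not check the deletion. The libraries expressed the markers of embryonic retina, with 10226 and 10652 CPM, the reads of a gene scaled to library size, summed over 13 progenitor genes in wildtype and 8290 and 8736 in mutant retinas. Over 18 ganglion cell genes the sum was 3608 and 4101 CPM in wildtype and 1534 and 1224 CPM in mutant retinas, and 16 of them were called lower. Thy1 was called higher from very few reads, 1 and 1 in wildtype and 11 and 25 in mutant libraries. In bulk retina, fewer cells of a type and less RNA per cell cannot be told apart.

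Of the 93 potassium channel genes, 76 had enough reads to be tested. The limits for a call were those the study's methods give, a 1.4-fold difference with an adjusted p no higher than 0.2. Of the 76, 15 were called lower and 17 higher in Nrf1-CKO retinas. Over all 15762 tested genes, 8.04% were called lower and 12.8% higher, against 19.7% and 22.4% of the tested potassium channel genes. The genotypes did not overlap in any of the 32 called members. Without overlap were 21 tested members on the lower and 32 on the higher side, beside 31.6% and 30.9% of all tested genes (62.5% in either direction). The median log2 fold change over the 76 genes was 0.15, beside 0.00073 over all tested genes. In wildtype, the 15 lower genes had a median level of 8.81 CPM and the 17 higher genes one of 1.04 CPM. The remaining 44 tested genes had log2 fold changes between -0.97 and 1.29. Of the 17 genes that were not tested, 8 had no read in any library and 9 had at most 10 reads in any library.

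**Figure D1:**
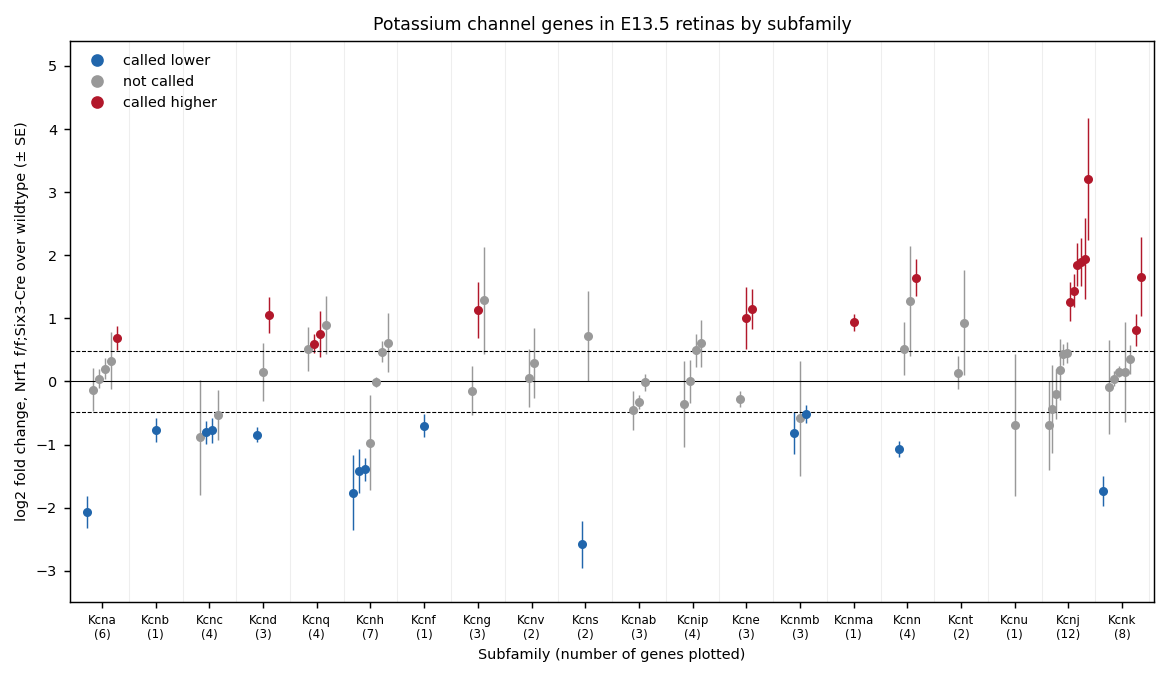
Log2 fold change of 74 tested potassium channel genes in Nrf1-CKO over wildtype retinas, by subfamily, with the standard error as bars and a fold of 1.4 as dashed lines. Blue genes were called lower (14), red genes higher (17) and grey genes neither (43), and the value of Kcnj5 is a fitted one, since its wildtype libraries held 2 and 3 reads.

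The voltage-gated alpha subunits held 9 of the 15 decreases. Of their 30 genes, 27 were tested, 9 were called lower and 4 higher, and their median log2 fold change was -0.01. The sum of the ganglion cell markers given above fell in the same libraries, and its part in these decreases was not tested. The largest decrease among them was that of Kcna2, a delayed rectifier of the Shaker type that is concentrated along axons. Kcna2 had 766 and 658 reads in wildtype and 222 and 126 in mutant libraries. Its level fell from 8.81 ± 0.0882 to 2.10 ± 0.813 CPM (SD, n = 2), a log2 fold change of -2.07 ± 0.26 (SE) at an edgeR adjusted p of 0.000665. The wildtype values lay close together, and those of the mutant were far below them.

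Among the other Shaker genes, Kcna5 was called higher. It had 638 and 558 reads in wildtype and 797 and 1183 in mutant libraries, a log2 fold change of 0.69 ± 0.19 (SE) at an edgeR adjusted p of 0.0307. Mutant replicate 2 carried most of this difference, and without it the log2 fold change was 0.37 and the gene was not called. Kcna6 (812, 871, 840 and 958 reads, in the order wildtype 1, wildtype 2, mutant 1, mutant 2, as in all lists of 4 below) had a log2 fold change of 0.05 and its genotypes overlapped. Of the exon length of Kcna6, 39.6% also lies in an antisense gene, and the strand setting of the counting is not given in the sources used here. Scaled by exon length, Kcna2 made up 9.35% and 9.07% of the reads of the Shaker genes in wildtype and 2.62% and 1.22% in mutant retinas, whereas Kcna5 made up 32.4% and 32.0% and then 39.2% and 47.8%.

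Among the Kcnq genes, some of which form the M channel that restrains repetitive firing, 5 were tested, 1 was called lower and 2 higher. Kcnq5, which can form M channels, had 603, 448, 862 and 762 reads and a log2 fold change of 0.60 ± 0.15 (SE) at an edgeR adjusted p of 0.0212. Kcnq3, another M channel subunit, was lowly expressed with 77, 61, 111 and 128 reads. Its log2 fold change of 0.76 was called at an adjusted p of 0.179 from edgeR, but no longer when any 1 of the 4 libraries was left out (0.65 to 0.86, adjusted p from 0.279 to 0.474).

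The genes of the Kcnh group encode channels of the EAG, ERG and ELK types. Of 7 tested, 3 were called lower and none higher. Kcnh8, an ELK channel, had 780 and 660 reads in wildtype and 318 and 245 in mutant libraries, with a log2 fold change of -1.39 ± 0.18 (SE) at an edgeR adjusted p of 0.000852. Kcnh7, an ERG channel, had 153, 165, 56 and 67 reads and a log2 fold change of -1.42 ± 0.35 (SE) at an edgeR adjusted p of 0.0202. Kcnh4, the other ELK channel that was called, had 125, 101, 54 and 14 reads. Its log2 fold change of -1.76 ± 0.59 (SE) depended on the mutant library, and was -3.03 without mutant replicate 1 and -1.10 without mutant replicate 2. In contrast, Kcnh2, the ERG channel that also repolarizes the heart, was far more abundant and was not called. It had 4930 and 4430 reads in wildtype and 4749 and 4809 in mutant libraries, a log2 fold change of -0.01 ± 0.08 (SE) at an edgeR adjusted p of 0.95. Kcnh2 provided 74.1% to 80.6% of the Kcnh total per exon length in the 4 libraries, and the group as a whole had 75.6 and 78.4 CPM in wildtype and 71.5 and 71.3 CPM in mutant retinas.

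Decreases were also found among A-type and fast-spiking channels. Kcnd3, which carries a fast inactivating A-type current, had 4225 and 3931 reads in wildtype and 2619 and 2059 in mutant libraries. It fell from 50.6 ± 3.36 to 28.2 ± 4.69 CPM (SD, n = 2), and its log2 fold change was -0.84 ± 0.12 (SE) at an edgeR adjusted p of 0.00127. Its paralog Kcnd2, which carries the same kind of current, was much lower in wildtype and rose from 106 and 97 to 222 and 210 reads, with a log2 fold change of 1.05 ± 0.28 (SE) at an edgeR adjusted p of 0.0283. Per exon length, Kcnd2 made up 4.32% and 4.31% of the Kcnd total in wildtype and 13.1% and 15.2% in mutant retinas, and Kcnd3 still made up 83.05% and 79.97% there. The 4 Kcnc genes, of the Shaw type that supports fast spiking, all had negative log2 fold changes, from -0.89 to -0.53. Kcnc2 (1248, 1214, 866 and 588 reads) and Kcnc1 (419, 401, 234 and 260 reads) were called, at log2 fold changes of -0.80 and -0.77 with standard errors of 0.18 and 0.20. Of the delayed rectifiers of the Shab type, Kcnb2 was called lower, with 592, 552, 394 and 298 reads and a log2 fold change of -0.77 ± 0.19 (SE) at an edgeR adjusted p of 0.0199.

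**Figure D2:**
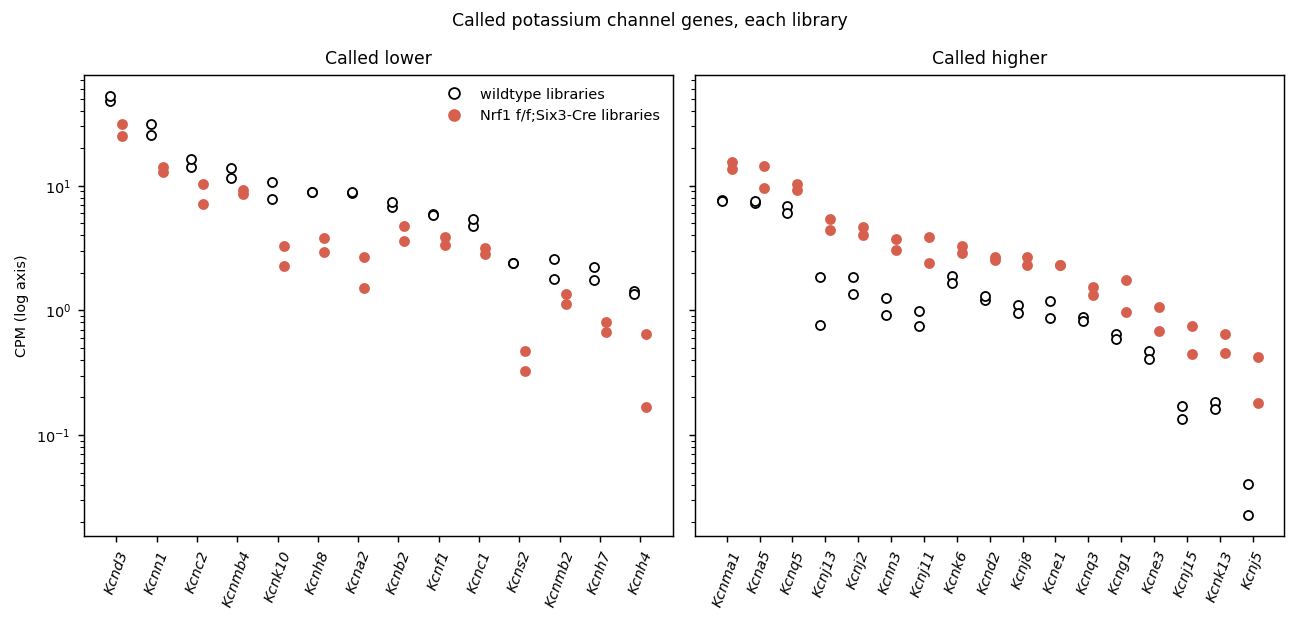
CPM on a log axis in each of the 4 libraries for 14 potassium channel genes called lower and 17 called higher, with open circles for wildtype and filled circles for Nrf1-CKO libraries. In every gene shown, both mutant libraries lie on one side of both wildtype libraries, and the 2 mutant libraries of Kcnh4 lie far apart.

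Modifier alpha subunits form no channels on their own and change those of the Shab type when they assemble with them. Of 10 genes, 8 were tested, 2 were called lower and 1 higher, and the median log2 fold change was 0.17. Kcns2 had the largest decrease of all tested potassium channel genes, from 209 and 177 reads in wildtype to 39 and 27 in mutant libraries. The remaining level was 16.7% of that in wildtype, a log2 fold change of -2.58 ± 0.37 (SE) at an edgeR adjusted p of 0.00144. Across the alternatives given at the end, this log2 fold change lay between -2.86 and -0.68, and that of Kcna2 between -2.53 and -1.03. The size of the Kcns2 decrease, and its rank, thus depended on the processing. Kcnf1 had 519, 434, 279 and 320 reads and a log2 fold change of -0.70 ± 0.18 (SE) at an edgeR adjusted p of 0.0235. Kcng1 was called higher with few reads (57, 44, 81 and 145), at a log2 fold change of 1.13 and an adjusted p of 0.104 from edgeR. It was no longer called without wildtype replicate 1, wildtype replicate 2 or mutant replicate 2, with log2 fold changes of 1.20, 1.07 and 0.64.

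Auxiliary subunits bind the pore-forming proteins. Of 16 genes, 13 were tested, 2 were called lower and 2 higher, and none of the 3 beta subunits of Shaker channels (Kcnab1 to Kcnab3) or of the 4 calcium-binding KChIP genes (Kcnip1 to Kcnip4) was among them. The median log2 fold change of the 13 genes was -0.28. Kcnab2, the most abundant of these 7 by reads, had 2119, 1558, 1500 and 1485 reads and a log2 fold change of -0.33 ± 0.11 (SE), below the fold required. Kcnab1 had 874, 778, 902 and 780 reads and a log2 fold change of -0.01. Kcnmb4, the neuronal beta subunit of the BK channel, had 1222, 861, 712 and 771 reads and a log2 fold change of -0.52 ± 0.14 (SE) at an edgeR adjusted p of 0.0303. Of its exon length, 20.8% lies in the antisense gene Kcnmb4os2 and 10.7% in Kcnmb4os1. The change is close to the fold required, and without wildtype replicate 1 or mutant replicate 1 it was -0.37 and -0.46 and no longer called. Kcnmb2, a beta subunit that inactivates BK channels, had 227, 132, 93 and 113 reads and a log2 fold change of -0.82 at an edgeR adjusted p of 0.115, and it was likewise lost without wildtype replicate 1 (-0.51) or mutant replicate 1 (-0.68).

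Of the small single-pass KCNE subunits, Kcne1, which slows the channel formed by Kcnq1, rose from 105 and 65 to 193 and 190 reads, with a log2 fold change of 1.15 ± 0.32 (SE) at an edgeR adjusted p of 0.0319. Kcne3 had 41, 30, 89 and 57 reads and a log2 fold change of 1.01 at an adjusted p of 0.186 from edgeR. That call was lost when any 1 of the 4 libraries was left out, with log2 fold changes from 0.66 to 1.29. The most abundant KCNE gene, the X-linked Kcne1l, had 1463, 1474, 1167 and 1332 reads and a log2 fold change of -0.28 at an edgeR adjusted p of 0.167, below the fold required.

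Calcium- and sodium-activated channels showed changes in both directions. All 8 genes were tested, 1 was called lower and 2 higher, and 6 of the 8 log2 fold changes were positive, with a median of 0.72. Kcnn1, which encodes a small-conductance channel (SK) opened by calcium inside the cell, fell from 2234 and 2329 reads in wildtype to 1184 and 1061 in mutant libraries. In CPM it went from 28.5 ± 4.17 to 13.54 ± 1.01 (SD, n = 2), a log2 fold change of -1.07 ± 0.13 (SE) at an edgeR adjusted p of 0.000559. Kcnn3, another SK gene, rose from 80 and 93 to 254 and 307 reads, with a log2 fold change of 1.64 ± 0.30 (SE) at an edgeR adjusted p of 0.00446. Per exon length, Kcnn1 made up 96.0% and 96.6% of the Kcnn total in wildtype and 85.7% and 83.3% in mutant retinas, and Kcnn3 went from 1.51% and 1.69% to 8.07% and 10.6%. Kcnma1, the pore of the BK channel, which opens with calcium and depolarization together, had 672 and 559 reads in wildtype and 1287 and 1127 in mutant libraries. It rose from 7.60 ± 0.0966 to 14.6 ± 1.32 CPM (SD, n = 2), and its log2 fold change was 0.94 ± 0.13 (SE) at an edgeR adjusted p of 0.00123, while the beta subunit genes Kcnmb2 and Kcnmb4 were called lower.

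Among the inward rectifiers, every called gene was higher. Of 15 Kcnj genes, 12 were tested, none was called lower and 6 were called higher. The median log2 fold change of the tested genes was 0.86, unchanged with Kcnj5 set to its fold over the floor given below. At an unadjusted p under 0.05, no Kcnj gene was lower either. Kcnj2, a strong inward rectifier that holds the resting potential, rose from 162 and 100 to 389 and 333 reads, with a log2 fold change of 1.44 ± 0.26 (SE) at an edgeR adjusted p of 0.0043. Kcnj13, known from the pigment epithelium, had 163 and 57 reads in wildtype and 366 and 448 in mutant libraries and a log2 fold change of 1.89 ± 0.38 (SE) at an edgeR adjusted p of 0.00717. The wildtype libraries differed widely for Kcnj13, and its log2 fold change was 2.68 without wildtype replicate 1 and 1.403 without wildtype replicate 2. Of its exon length, 49.1% lies in the gene Gigyf2 on the opposite strand, which had a log2 fold change of -0.03. Pigment epithelium markers moved in the same direction, from a sum of 153 to 214 CPM in wildtype to 387 to 411 CPM in the mutant, and their part in the result was not tested.

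Subunits of the ATP-sensitive potassium channel rose together with their partners. This channel joins a pore from Kcnj11 or Kcnj8 with a sulfonylurea receptor from Abcc8 or Abcc9. Kcnj11 had 66 and 73 reads in wildtype and 321 and 199 in mutant libraries, a log2 fold change of 1.85 ± 0.35 (SE) at an edgeR adjusted p of 0.00521. Kcnj8 had 97, 71, 192 and 220 reads and a log2 fold change of 1.26 ± 0.30 (SE) at an edgeR adjusted p of 0.0172. Abcc8 had 8 and 36 reads in wildtype and 402 and 205 in mutant libraries, a log2 fold change of 3.70 ± 0.64 (SE) at an edgeR adjusted p of 0.00351. Abcc9 rose from 390 and 405 to 982 and 930 reads, a log2 fold change of 1.22 ± 0.16 (SE) at an edgeR adjusted p of 0.000794. The genotypes did not overlap for any of these 4 genes, which adds little to their calls, since 62.5% of all tested genes did not overlap. Abcc9 is also 1 of the mural cell markers, whose sum went from 190 to 201 CPM in wildtype to 317 to 319 CPM in the mutant, and their part was not tested.

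Further inward rectifiers were called from few reads. Kcnj15 had 15, 10, 62 and 37 reads and a log2 fold change of 1.95 at an adjusted p of 0.0625 from edgeR, and it was not called without wildtype replicate 2 (1.79) or mutant replicate 1 (1.53). Kcnj5, a subunit of channels opened by G proteins, had only 2 and 3 reads in wildtype and 35 and 15 in mutant libraries. Against a floor of 3 reads per library in wildtype, its level was 8.07-fold higher in mutant retinas. Without mutant replicate 1, on which this fold rests most, it was 4.85-fold higher. The counting error of the mutant reads is not in these folds, so they are no strict lower bounds for Kcnj5. It was not called without wildtype replicate 1 or mutant replicate 1, with fitted log2 fold changes of 2.85 and 2.48. The most abundant inward rectifier, Kcnj12, had 1078, 885, 1615 and 1149 reads and a log2 fold change of 0.46 ± 0.16 (SE), just under the fold required. Without mutant replicate 2 it was 0.68 and called.

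Tandem-pore (Kcnk) channels conduct at rest and are regulated by stretch, pH and lipids. Of 14 genes, 8 were tested, 1 was called lower and 2 higher, and the median log2 fold change was 0.16. Kcnk10, which encodes the mechanically gated channel TREK-2, had 685 and 791 reads in wildtype and 273 and 187 in mutant libraries. It fell from 9.24 ± 2.01 to 2.77 ± 0.725 CPM (SD, n = 2), and its log2 fold change was -1.74 ± 0.24 (SE) at an edgeR adjusted p of 0.00104. Kcnk6 rose from 164 and 122 to 273 and 241 reads, with a log2 fold change of 0.82 ± 0.26 (SE) at an edgeR adjusted p of 0.0517. Kcnk13, which encodes the resting channel THIK-1 of microglia, had 16, 12, 38 and 53 reads and a log2 fold change of 1.66 at an adjusted p of 0.0932 from edgeR. The call of Kcnk13 was lost when any 1 of the 4 libraries was left out, with log2 fold changes from 1.398 to 1.88. The summed level of 12 macrophage and microglia markers went from 84.7 to 91.2 CPM in wildtype to 273 to 333 CPM in the mutant, and its part in the Kcnk13 result was not tested. Kcnk1, a weakly conducting resting channel, had 5619, 5235, 5847 and 6606 reads and a log2 fold change of 0.16 at an edgeR adjusted p of 0.263. Kcnk5, an alkaline-activated channel, had 1094, 984, 1100 and 1103 reads and a log2 fold change of 0.05 at an edgeR adjusted p of 0.828.

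Levels were compared between genes as CPM per kilobase of annotated exon. In wildtype retinas, Kcnk1 was highest with 28.7 and 31.6, followed by Kcnh2 (11.6 and 12.3) and Kcne1l (10.8 and 12.9), of which the last 2 did not differ beyond their spread. These 3 genes also stood first in the mutant, at 31.5 and 35.7, 11.8 and 12.0, and 9.10 and 10.4, and none of them was called. Behind them, Kcnn1 (5.56 and 6.85) and Kcnd3 (5.03 and 5.53) ranked 4 and 5 in wildtype, with the lower Kcnn1 value close to the higher Kcnd3 value, and in the mutant their mean levels ranked 9 and 10. Kcnk10 went from rank 20 to rank 42, Kcna2 from 25 to 53 and Kcns2 from 32 to 67. In the other direction, Kcnj13 went from rank 21 to rank 7 and Kcnj8 from 34 to 20. Summed over all 93 genes, the level was 113.7 and 119.7 in wildtype and 114.6 and 119.1 in mutant retinas, which did not differ beyond the spread between replicates on this scale. In CPM, where long transcripts weigh more, the sums were 483.9 and 512.3 in wildtype and 455.1 and 446.4 in mutant retinas, and the genotypes did not overlap. The sum of the inward rectifiers was 8.76 and 7.77 in wildtype and 15.4 and 14.3 in mutant libraries, 180% of wildtype. Most of it was held by Kcnj12, which was not called (means of 4.408 in wildtype and 6.059 in the mutant), and Kcnj13 (1.036 and 3.867). For the calcium- and sodium-activated channels, the sum went from 6.61 and 7.91 to 4.98 and 4.52, 65.4% of wildtype. Most genes of this class nevertheless had positive log2 fold changes. Kcnn1 alone, with means of 6.203 in wildtype and 2.952 in the mutant, made up most of this sum. The sum of the voltage-gated alpha subunits went from 37.0 and 39.0 to 34.7 and 34.9, 91.6% of wildtype. The order of these falls depended on the scale. In CPM, the calcium- and sodium-activated channels had 37.5 and 43.6 in wildtype and 37.3 and 34.2 in the mutant, and the voltage-gated alpha subunits 240.9 and 258.8, then 205.8 and 193.5. The inward rectifiers were higher in CPM as well, with 25.8 and 24.4 in wildtype and 44.6 and 39.5 in the mutant.

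**Figure D3:**
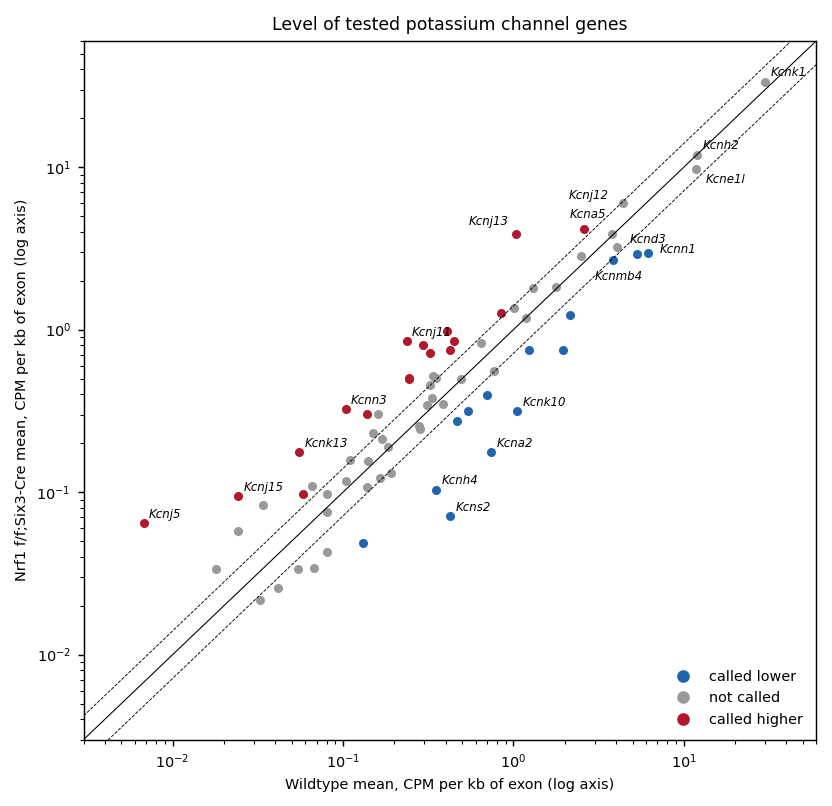
Mean level in Nrf1-CKO against wildtype retinas for 74 tested potassium channel genes, in CPM per kilobase of exon on log axes, with equality as a solid line and a fold of 1.4 as dashed lines. The 3 most abundant genes (Kcnk1, Kcnh2 and Kcne1l) lie within the dashed lines, and the called genes (blue lower, red higher) lie outside.

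**Figure D4:**
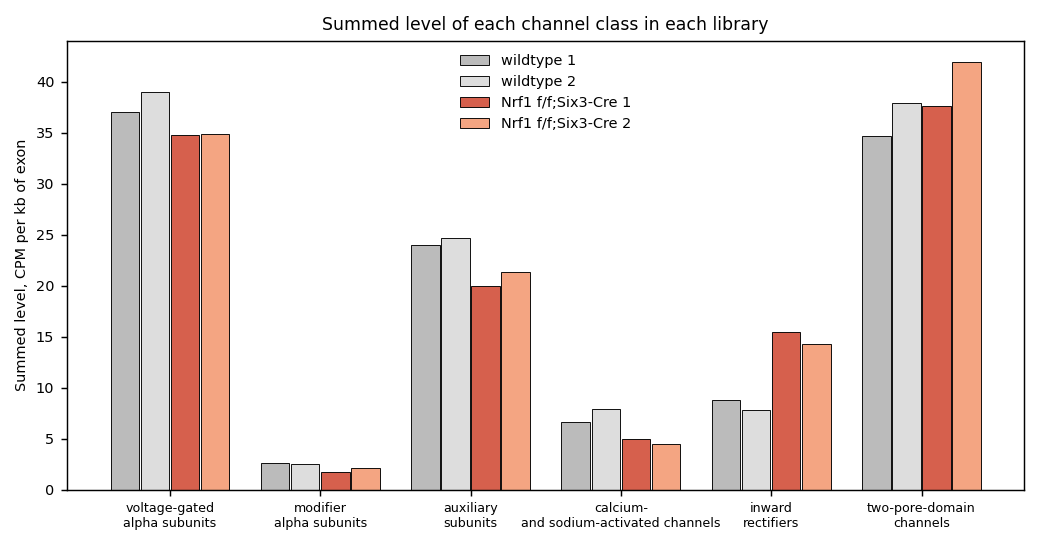
Summed level of each class of potassium channel genes in each of the 4 libraries, in CPM per kilobase of exon, with grey bars for wildtype and red bars for Nrf1-CKO. The inward rectifiers are higher in both mutant libraries (15.4 and 14.3, beside 8.76 and 7.77), and the libraries overlap for the tandem-pore channels.

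Genes that work with potassium channels but carry other names were examined as well. Of 13 auxiliary proteins, 11 were tested, 3 were called lower and 2 higher, the last being Abcc8 and Abcc9. Dpp6 and Dpp10, membrane partners of the A-type channels, were both lower, Dpp6 with 4660, 4074, 2001 and 1463 reads and a log2 fold change of -1.37 ± 0.14 (SE) and Dpp10 with 139, 142, 65 and 42 reads and -1.44 ± 0.39 (SE). Cntn2, an axonal adhesion molecule that holds Shaker channels at their place along the axon, had 38478, 35191, 13625 and 10291 reads and a log2 fold change of -1.66 ± 0.13 (SE). Its partner Cntnap2 had a log2 fold change of -0.38 and was below the fold required. Of 4 HCN genes, which encode cation channels opened by hyperpolarization, 2 were called lower and 1 higher, and the lower ones were Hcn3 (-1.02) and Hcn4 (-0.61). Among 9 subunits and regulators of the sodium-potassium pump, 8 were tested, 2 were called lower and none higher, and 1 of the lower genes was Fxyd7, which had 25, 21, 10 and 0 reads. Of 7 cation-chloride cotransporters, 5 were tested and Slc12a4 was called higher, with a log2 fold change of 0.75 ± 0.14 (SE).

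Many markers of cells outside the neural retina were also higher in the mutant libraries. Of 12 macrophage and microglia markers, 12 were called higher, with a summed level of 84.7 to 91.2 CPM in wildtype and 273 to 333 CPM in mutant retinas. For the pigment epithelium, 6 of 10 markers were called higher, and the sum went from between 153 and 214 to between 387 and 411 CPM, although Rpe65 and Lrat had too few reads to be tested. For mural cells of vessels, whose list includes Abcc9, 5 of 8 were higher and Vtn lower, the sum went from between 190 and 201 to between 317 and 319 CPM, and Higd1b had no read. Of 10 endothelial markers, 8 were higher and Kdr lower, and the sum went from between 286 and 288 to between 318 and 323 CPM. Kdr held most of the wildtype sum and fell from a mean of 205 to 141 CPM, so the sum understates the rise of the 8 higher markers. Of 12 lens markers, 11 were higher, with sums of 169 and 477 CPM in wildtype and 9689 and 4003 CPM in mutant libraries. Of 10 markers of periocular mesenchyme, 6 were higher (183 to 267 CPM, then 329 to 384 CPM), as were 3 of 9 erythroid genes (559 to 658 CPM, then 726 CPM), where Hbb-bt and Hba-a1 had no read. Within the retina, 3 of 13 progenitor genes and 2 of 6 photoreceptor precursor genes were called lower, and of 8 amacrine and horizontal cell genes 4 were lower and 2 higher. The part of these cells, and of the ganglion cells, in the changes of potassium channel genes was not tested.

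Promoter sequences were available from RefSeq (GRCm38.p6) for 68 of the 93 potassium channel genes, as windows from 250 bases before to 50 bases after each start. Nrf1 binds as a dimer to a palindrome, and the motif searched on both strands was GCGCA, then any base N, then GCGC. It was in none of the windows of the 68 genes, beside 4.60% of all 32851 windows and 5.19% of all genes with a window, which says only that these letters are not there. Of the genes tested here, 1020 of 9258 not called (11%), 135 of 889 called lower (15.2%) and 22 of 1455 called higher (1.51%) had it. The single element GCGCA, which lies within that motif, was in at least 1 window of 47.1% of the 68 genes and of 32.9% of all 27025 genes with a window, a set that includes genes without reads in these libraries. Of the genes that were tested here, it was found for 56.3% of those not called, 59.4% of those called lower and 38.8% of those called higher. Among members with a window it was found for 4 of the 12 called lower (33.3%), 5 of the 12 called higher (41.7%) and 16 of the 29 not called (55.2%). In 4 called genes, the element lay within the 250 bases before the start and those bases held no annotated exon. They are shown because they include genes of both directions, with GCGCA elements on either strand in capitals, read 5′ to 3′ on the strand of the gene.
Kcnc1 (chr7:46396218-46396467, + strand): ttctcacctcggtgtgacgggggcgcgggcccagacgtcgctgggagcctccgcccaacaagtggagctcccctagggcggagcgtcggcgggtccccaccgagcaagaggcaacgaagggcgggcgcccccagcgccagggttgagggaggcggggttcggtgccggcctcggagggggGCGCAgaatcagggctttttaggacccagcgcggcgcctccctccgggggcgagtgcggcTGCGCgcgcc
Kcnd2 (chr6:21215096-21215345, + strand): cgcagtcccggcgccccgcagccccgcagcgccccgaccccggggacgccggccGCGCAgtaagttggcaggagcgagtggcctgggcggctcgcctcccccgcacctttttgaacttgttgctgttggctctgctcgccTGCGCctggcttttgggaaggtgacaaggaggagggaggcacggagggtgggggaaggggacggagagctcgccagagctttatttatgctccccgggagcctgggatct
Kcnj2 (chr11:111065914-111066163, + strand): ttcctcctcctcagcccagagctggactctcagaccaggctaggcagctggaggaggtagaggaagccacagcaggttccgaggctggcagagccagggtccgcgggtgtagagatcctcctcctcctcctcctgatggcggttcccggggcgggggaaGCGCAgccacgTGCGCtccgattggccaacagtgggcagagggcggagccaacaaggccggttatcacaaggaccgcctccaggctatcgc
Kcnn3 (chr3:89519914-89520163, + strand): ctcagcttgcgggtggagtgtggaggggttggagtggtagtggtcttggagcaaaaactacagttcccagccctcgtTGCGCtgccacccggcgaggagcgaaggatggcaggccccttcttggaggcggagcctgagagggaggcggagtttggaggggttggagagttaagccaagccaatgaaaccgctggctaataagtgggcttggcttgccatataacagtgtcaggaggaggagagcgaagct
Kcnc1, the first, was called lower, and Kcnd2, Kcnj2 and Kcnn3 were called higher. GCGCA elements thus stood before called genes of both directions, and a match is not a site of binding.

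**Figure D5:**
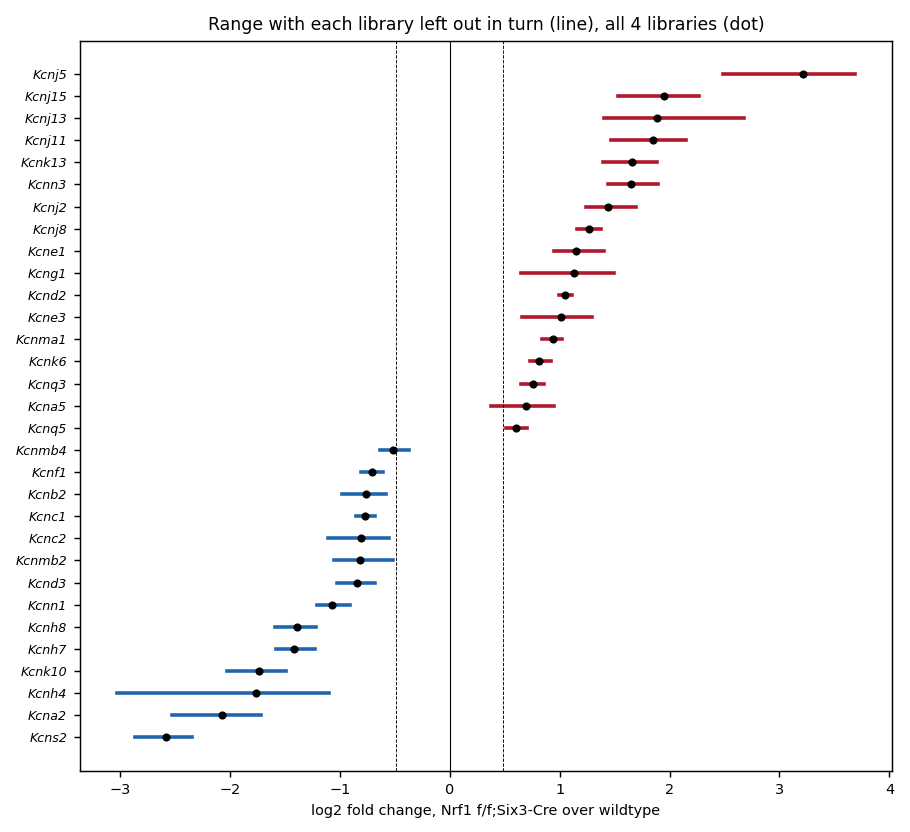
Log2 fold change of 31 called potassium channel genes with all 4 libraries (dot) and its range over fits that each lack 1 library (line), with a fold of 1.4 as dashed lines. The lines of Kcnmb4 and Kcna5 cross the dashed lines, and that of Kcnh4 is the longest.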

How the data were processed

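Total RNA of pooled E13.5 retinas was sequenced as paired-end reads. Alignment to mm10 (Tophat 2.7.2) and gene counting (HTSeq) were done by the authors, and the table they deposited holds raw counts. The authors also deposited normalized expression on a log2 scale, used here only in an alternative. The 5 HTSeq summary rows, 74% to 75% of all entries, stayed out of library sizes and tests. Most were reads that did not map uniquely (54.6% to 58%).

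Genes were filtered with filterByExpr (minimum count 10) and scaled with TMM factors between 0.992 and 1.02, and the genotypes were compared by quasi-likelihood testing in edgeR 4.0.16 (R 4.3.3), with Benjamini-Hochberg adjustment over all tested genes. The standard error of a log2 fold change was its size divided by the square root of F. CPM values use the same scaling. The biological coefficient of variation was 12%, and counting error is small beside it except for genes of few reads. Scripts were tested on simulated data. Samples with the same replicate number did not deviate together (correlation -0.0025), so the numbers were not used as pairs. The replicates of a genotype differed by more than sampling noise (chi-square per gene of 45.8 and 56.8).

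The members, the marker and partner lists and the alternatives were chosen with earlier results of these data known. Named are all called members, all members of at least 10 CPM on average, and list genes that were called or reach that level, except for some genes that are not reported here, in the text or the plots of single genes. The counts include them. Gigyf2 was named because of its overlap, and Fxyd7 and Vtn, Kdr and Thy1 after their values were seen. Exon lengths and overlaps come from GENCODE M21 (GRCm38).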

Additional observations from a re-analysis of the deposited data

How the results depend on the processing

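Counts of potassium channel genes called lower and higher (15 and 17) kept within 1.5 times under DESeq2 (15 and 15), other scaling, other filters on low counts and scaling without markers of other tissues. Upper-quartile factors gave 14 and 21, with 31 of 35 calls shared. A test against a fold of 1.4 (glmTreat) gave 10 lower and 10 higher genes, an adjusted p of at most 0.05 gave 13 and 11, and limma on the deposited normalized values gave 8 lower and 5 higher. Over all genes, glmTreat called 743 lower and 1188 higher and limma on the deposited values 723 and 945. On the deposited values, some log2 fold changes were also smaller, 0.36 beside 1.05 for Kcnd2 and -0.41 beside -1.42 for Kcnh7, below the fold required. With the replicate number as a block, 15 lower and 15 higher members were called (1256 and 1970 of all genes). Kcne3 and Kcnq3 were lost, and whether libraries of equal number share an origin is not given. Leaving out 1 library gave 13 to 15 lower and 12 to 15 higher members, and 1071 to 1402 lower and 1703 to 1856 higher genes in all. The library left alone in its genotype was assumed to vary like the other genotype. In all alternatives run, 8 lower genes (among them Kcna2, Kcnc2, Kcnd3, Kcnh8, Kcnk10, Kcnn1 and Kcns2) and 5 higher genes (Kcnj2, Kcnj11, Kcnj13, Kcnma1 and Kcnn3) kept their call. No called gene changed direction, whereas Kcna6, Kcnab1 and Kcnh2, which were not called and lay near 0, changed sign under some alternatives (-0.11 to 0.23, -0.12 to 0.08 and -0.05 to 0.04 on the log2 scale). Without Nrf1-CKO replicate 1, 54.8% of all calls were higher, beside 61.5% with all 4 libraries. Calls were lost with a stricter threshold or fewer libraries, and also under others such as DESeq2, upper-quartile factors, the replicate block and the deposited values. Why they were lost was not tested further. With 2 pools a genotype, genes of few reads are least certain.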
